A study of Mus musculus with 9 samples.

Results

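Liver endothelial cells speak to hepatocytes through secreted and surface proteins, and 6 genes of this kind were followed here: Wnt2 and Wnt9b, which encode Wnt ligands, Rspo3, which encodes an R-spondin that strengthens Wnt signalling, Hgf, which encodes hepatocyte growth factor, Kit, which encodes the receptor of stem cell factor, and Thbd, which encodes thrombomodulin. They were taken by name from the table of UMI counts, in which a UMI stands for 1 captured transcript, and make up 6 of its 27998 genes. Their levels were read in cells that were called endothelial-like from 16 fixed markers and in 12 other cell classes, in every library. The study asked what YAP, a transcriptional co-activator of the Hippo pathway, does to the adult liver. Droplet-based 3' single-cell RNA-seq was run on collagenase-digested livers of C57BL/6 mice, which gave 9 libraries and 8562 cells. All animals carried ROSA26-rtTA-IRES-EGFP, which encodes the doxycycline-responsive transactivator together with green fluorescent protein, and all ate doxycycline food. WT stands for 2 libraries of mice with ROSA26-rtTA-IRES-EGFP but no YAP transgene, on the drug for 7 days. YAP3d stands for 4 libraries and YAP7d for 3 libraries of mice that also carried tetYAP, an inducible, activated form of YAP, on the drug for 3 days and for 7 days. In the study's methods the transactivator is released by Alb-Cre, a recombinase driven in hepatocytes, so that the transgene is meant for hepatocytes and not for the endothelium. The labels name neither Alb-Cre nor a time-matched WT group for 3 days, nor the animal behind each library, so that p-values measure the spread between these libraries.

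Wnt2, Wnt9b and Rspo3 are known products of the endothelium around the central vein, where they keep neighbouring hepatocytes in the pericentral state. A Wnt ligand binds a Frizzled receptor and its LRP co-receptor and stabilises beta-catenin, and an R-spondin binds LGR receptors and so protects the Frizzled receptors from removal. Hepatocyte growth factor acts on the receptor Met of hepatocytes and is known as a driver of liver regeneration. Kit on liver sinusoidal endothelial cells binds Kit ligand. Thrombomodulin holds thrombin at the vessel wall and turns it towards the activation of protein C, which slows clotting.

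After 7 days of YAP induction the endothelial-like cells held less Wnt2 and less Kit, relative to all their UMIs, than those of WT. Levels are given as CPM, the UMIs of a gene per 1000000 UMIs of the same cells. Wnt2 went from 412 ± 45.4 CPM (SD, n = 2 libraries) in WT to 131 ± 45.1 (SD, n = 3) in YAP7d, a fall of 1.52 on the log2 scale. Its call ended with a term for a transcript that split the libraries (Gm10709), and counted per cell the groups overlapped. Kit went from 189 ± 34.9 (SD, n = 2) to 88.4 ± 10.1 (SD, n = 3), a fall of 1.02. The fall was smaller without WT library 1, and counted per cell Kit was not lower. Rspo3, Hgf and Thbd did not pass the test, and Wnt9b was below the filter on low counts. After 3 days none of the 5 members tested passed, where 0% of all 7467 genes tested did. Over the same time endothelial-like cells went from between 35.5% and 53.0% of the cells of a WT library to between 3.49% and 4.99% in YAP7d, and Wnt2, Kit and Rspo3 were also called lower over all cells of the suspension, calls that ended with the Gm10709 term and, for Rspo3, also when any 1 WT or YAP7d library was left out.

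Of 8527 cells kept, 1947 were endothelial-like. WT held 276 and 502 of them, YAP3d 75, 51, 162 and 770, and YAP7d 24, 23 and 64. All 16 endothelial markers were found in every library. Pecam1 lay between 420.0 and 510.0 CPM in all 9 libraries, while Clec4g, a lectin of sinusoidal endothelium, was at 4325 to 6585 in WT and YAP3d and at 1086 to 1468 in YAP7d. The 16 markers summed to 11697 to 11738 in YAP7d and to 19936 or more in the other 6 libraries. Other values also moved with YAP7d. Of its 111 endothelial-like cells 92 formed a cluster of their own, numbered 22, which held no WT cell and 2 YAP3d cells. Between 70.8% and 85.9% of the endothelial-like cells of YAP7d held transcripts of 3 or more proliferation genes, against 4.35% and 17.5% in WT and 15.1% to 27.5% in YAP3d. Their median depth was 7404 to 13760 UMIs, against 2317 to 4773 in the other 6 libraries, whereas T-cell-like cells had medians of 4066 to 5931 in all 9. Transcripts of the predicted gene Gm10709 lay at 347 CPM or more in the 3 YAP7d libraries and in YAP3d libraries 1 and 2, and at 11.2 or less in the other 4 libraries (WT, and YAP3d libraries 3 and 4), so that WT and YAP7d lay wholly on opposite sides of this split and only YAP3d held both levels. A model with a term for it rests on the YAP3d libraries, and in it 233 genes were called between YAP7d and WT, against 1377 without it. A further cluster of 13 endothelial-like cells, all of YAP3d library 4, differed from the rest by B-cell genes such as Ebf1 and Cd79a and was kept. The libraries shared 46 cell barcodes, and no 2 cells with the same barcode had identical counts. The part of these features in the results below was not tested except where a value is given.

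The members differed in how far they belonged to the endothelium. Neither they nor the genes of the tested lists were used to form the clusters, and classes were compared without a test because they come from the same cells. Of all Wnt2 transcripts in the 9 libraries, 93.1% were in endothelial-like cells (95% exact binomial interval 92.2% to 93.9%, which like all intervals on counts here covers counting error only). The share was 93.8% for Wnt9b, 94.9% for Rspo3, 84.5% for Kit, 67.3% for Hgf and 54.0% for Thbd.

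**Figure D1:**
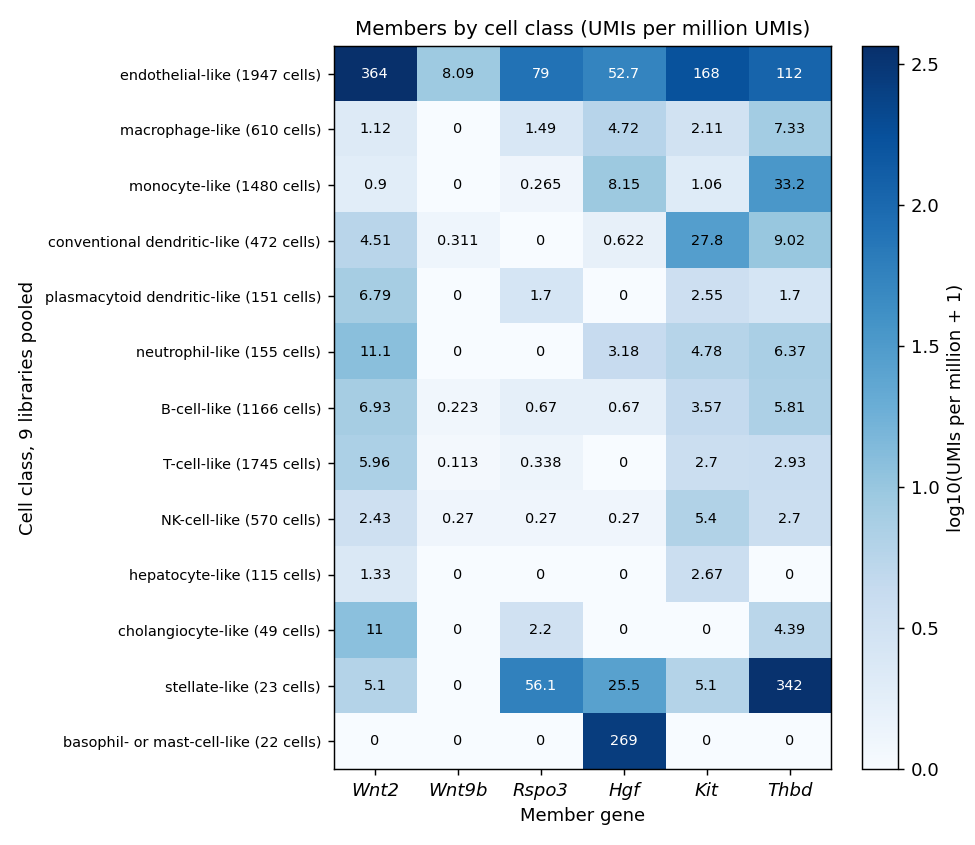
CPM of the 6 members (columns) in 13 named cell classes (rows, with their number of cells), all 9 libraries pooled; the colour is log10 of the value plus 1. Wnt2, Wnt9b, Rspo3 and Kit peaked in the endothelial-like class (364, 8.09, 79.0 and 168), Thbd in stellate-like cells (342) and Hgf in basophil- or mast-cell-like cells (269).

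Wnt2 was found in 57.0% of endothelial-like cells, at a lowest, median and highest level of 85.8, 268 and 444 CPM over the 9 libraries. No other named class came near. The next in the order, cholangiocyte-like cells, held 5 transcripts in 49 cells, and every class after it lay at a mean of 12.6 or less, with neighbours closer than their SD. T-cell-like cells, which should lack the gene, held a Wnt2 transcript in 3.04% of 1745 cells at a median depth of 4773 UMIs, against 4370 in the endothelial-like class, and a share of this size was read as background.

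Wnt9b, the scarcest member, had 80 transcripts in all, 75 of them in 57 endothelial-like cells. No other class held more than 2. Rspo3 was as restricted in class, and its 732 endothelial transcripts came from 112 cells, 5.75% of the class. Outside it, stellate-like cells had 11 Rspo3 transcripts in 23 cells, 56.1 CPM, and no other class had more than 12.

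Kit had a lowest, median and highest level of 76.8, 174 and 268 CPM in endothelial-like cells and was found in 41.4% of them. Conventional dendritic-like cells came next, with 15.7, 42.6 and 119, and a Kit transcript in 23.5% of 472 cells. The ranges of these neighbours overlapped, and in each single library the endothelial-like level was the higher. Kit was in 45.9% of the dendritic-like cells marked by Xcr1 and Clec9a, genes of cross-presenting dendritic cells, and in 12.4% of those marked by Cd209a. In T-cell-like cells the share was 1.26%.

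Hgf and Thbd had several sources. Hgf was found in 17.9% of endothelial-like cells, in 8.72% of 1480 monocyte-like cells and in 6.07% of 610 macrophage-like cells, at 52.7, 8.15 and 4.72 CPM pooled. The endothelial-like mean over libraries was 83.1 ± 52.7 (SD, n = 9), above the pooled level, in which YAP3d library 4 at 35.9 has the most UMIs. Stellate-like cells were at 25.5 pooled, from 5 transcripts in 1 cell. Its highest pooled level, 269 (172 to 400.4, exact Poisson), was that of 22 basophil- or mast-cell-like cells, of which 12 held a transcript. Hepatocytes use this factor and are not known to make it, and 115 hepatocyte-like cells held 0 Hgf transcripts.

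Thbd was highest in stellate-like cells, 342 CPM (265 to 434, exact Poisson) with a transcript in 19 of 23 cells. All 12 markers of that class were raised in them, but Lrat, Reln and Rgs5 were not among their leading genes. Those were Dcn, Clec3b, Mgp, Col3a1 and others, and whether the cells are stellate cells or other fibroblasts was not tested. Endothelial-like cells followed with 112 pooled and 28.7% of cells, and monocyte-like cells with 33.2 and 25.4%. Among monocyte-like clusters the level was 53.7 where Ly6c2 and Ccr2 mark classical monocytes, 69.4 in the cluster led by Ace and 11.8 in the cluster led by Cx3cr1 and Trem2. In the order of means over libraries, conventional dendritic-like cells came next at 9.25 ± 6.15 (SD, n = 9). From there down, neighbouring named classes lay closer than the larger of their SDs. The order ended at 0 in hepatocyte-like cells (n = 6).

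The genes most like each member over the 12 classes that could be compared, by Pearson r of log2(mean CPM + 1) among 10630 genes, were Emcn, F8 and Unc45b for Wnt2 (r = 0.97, 0.96 and 0.96). They were Rerg, Reep1 and Il13ra2 for Wnt9b (0.99, 0.98 and 0.98) and Akr1b8, Kdelr2 and Hspa12b for Rspo3 (0.97, 0.95 and 0.95). For Hgf they were Bvht, Plxna4 and Ednrb (0.97, 0.96 and 0.93), for Kit Arhgef7, Ece1 and Fscn1 (0.95, 0.93 and 0.89), and for Thbd Arsa, Fam102b and Ecm1 (0.91, 0.91 and 0.90). The 12 points share libraries and depth, and most of them lie near 0.

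The first question across groups is whether the ligands changed in the endothelial-like cells. Wnt2, whose gene lies at chr6:17985474-18032772 (GRCm38.p6), was at 379.5 and 444 CPM in WT. It was at 236, 268, 272 and 417 in YAP3d, libraries 1 to 4, and at 85.8, 131 and 176 in YAP7d. The 3 YAP7d libraries lay below all 6 others, while WT and YAP3d overlapped. The fall from WT to YAP7d was 1.52 on the log2 scale (SE 0.28, 95% interval -2.07 to -0.97), or 2.87-fold, with an adjusted p of 0.00144 (edgeR's quasi-likelihood test with Benjamini-Hochberg adjustment over 7467 genes, used for every adjusted p of a gene here). From YAP3d to YAP7d it fell by 1.08 (SE 0.254, adjusted p 0.00885 by edgeR). The step from WT to YAP3d was -0.44 (SE 0.248) and had an adjusted p of 1 by edgeR, with an interval from -0.93 to 0.04.

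2 of the 5 members tested, Wnt2 and Kit, were called lower in YAP7d than in WT, where 8.73% of all genes tested were. The members' median was -1.02 and that of all genes -0.04. Between YAP7d and YAP3d the same 2 members were called lower, against 8.14% of all genes, with medians of -0.78 and -0.05. Between YAP3d and WT 0 members were called, and 0% of all genes by edgeR, where 146 genes had an unadjusted p under 0.05. DESeq2 also called 0, with 89 under 0.05. The comparisons of YAP7d with WT and with YAP3d share the YAP7d libraries.

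**Figure D2:**
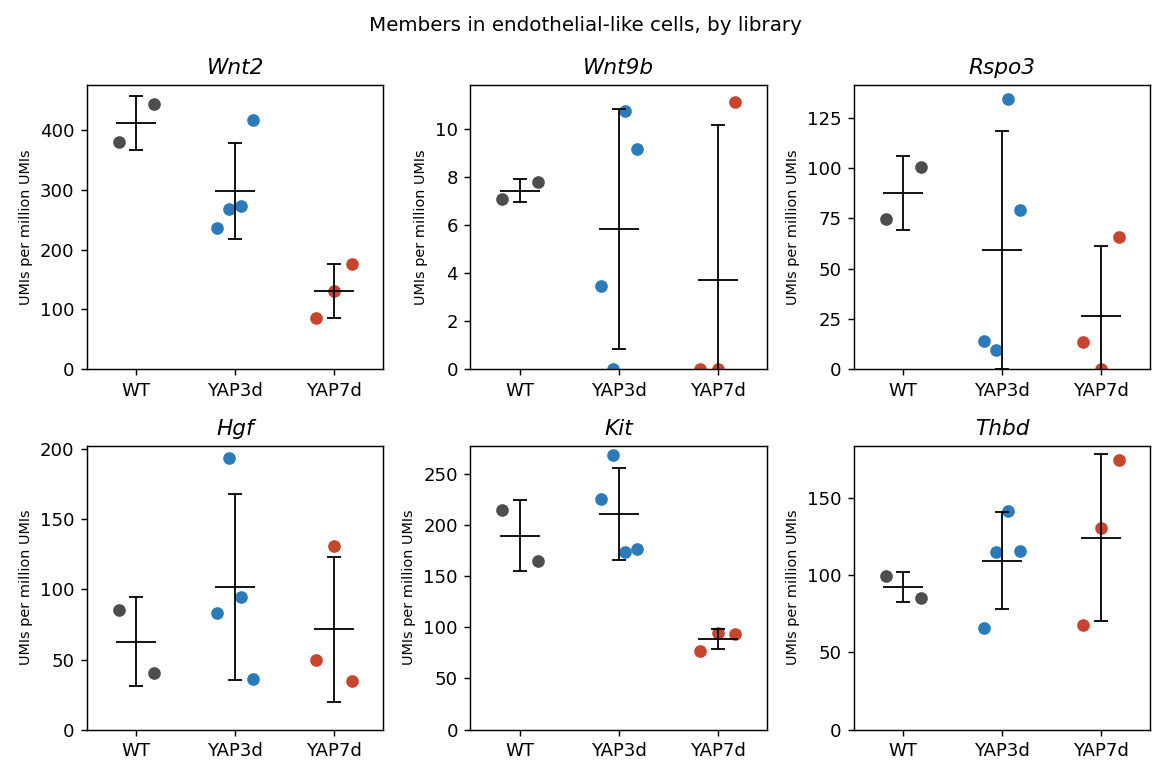
CPM of each member in endothelial-like cells (vertical axis, from 0) in the 3 groups (horizontal axis); points are libraries, the long bar is the group mean and whiskers are ± 1 SD, cut off at 0. Wnt2 lay at 85.8 to 176 and Kit at 76.8 to 94.7 in the 3 YAP7d libraries, below all 6 other libraries. Rspo3 in YAP7d (0 to 65.8) lay below WT but not below all of YAP3d, and YAP7d overlapped with WT for Wnt9b, Hgf and Thbd.

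Where the libraries of like Gm10709 level were compared, Wnt2 was at 236 and 268 in YAP3d libraries 1 and 2 and at 85.8 to 176 in YAP7d, without overlap. With Gm10709 as a term in the model, the Wnt2 difference between YAP7d and WT was -0.996 and lost its call (adjusted p 0.218 by edgeR). In the other 23 alternatives on this scale, leaving out each library included, the call was kept. Between YAP7d and YAP3d the Wnt2 call was lost with that term (-0.76, adjusted p 0.149) and in cells thinned to 2000 UMIs (-0.75, adjusted p 0.204 by edgeR). In YAP7d the Wnt2 level was 146 CPM in the 89 cells with 3 or more proliferation genes and 208 in the other 22 cells. In WT the values were 448 and 421. In cluster 22, which held most YAP7d cells, Wnt2 was at 164 CPM and Kit at 82.2, against 414 and 193 in cluster 6, the largest endothelial-like cluster. Cluster 3, with 184 WT, 186 YAP3d and 10 YAP7d cells, was at 234 for Wnt2 and at 84.6 for Kit. Low Kit was therefore not particular to cluster 22.

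The unit matters for Wnt2. Counted per cell, the endothelial-like cells of WT held 1.16 and 2.05 Wnt2 transcripts, those of YAP3d 0.907, 1.14, 0.938 and 2, and those of YAP7d 0.792, 1.26 and 2.47. The groups overlapped throughout. When libraries were scaled by their number of endothelial-like cells, the Wnt2 difference between YAP7d and WT was -0.04 on the log2 scale (adjusted p 0.935 by edgeR), but the median of all genes then shifted by 1.46 and 74% of genes were called higher. Relative to that shift Wnt2 was at -1.50. Scaling also by the median depth of T-cell-like cells gave a shift of 1.16 and a Wnt2 difference of -0.35.

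**Figure D3:**
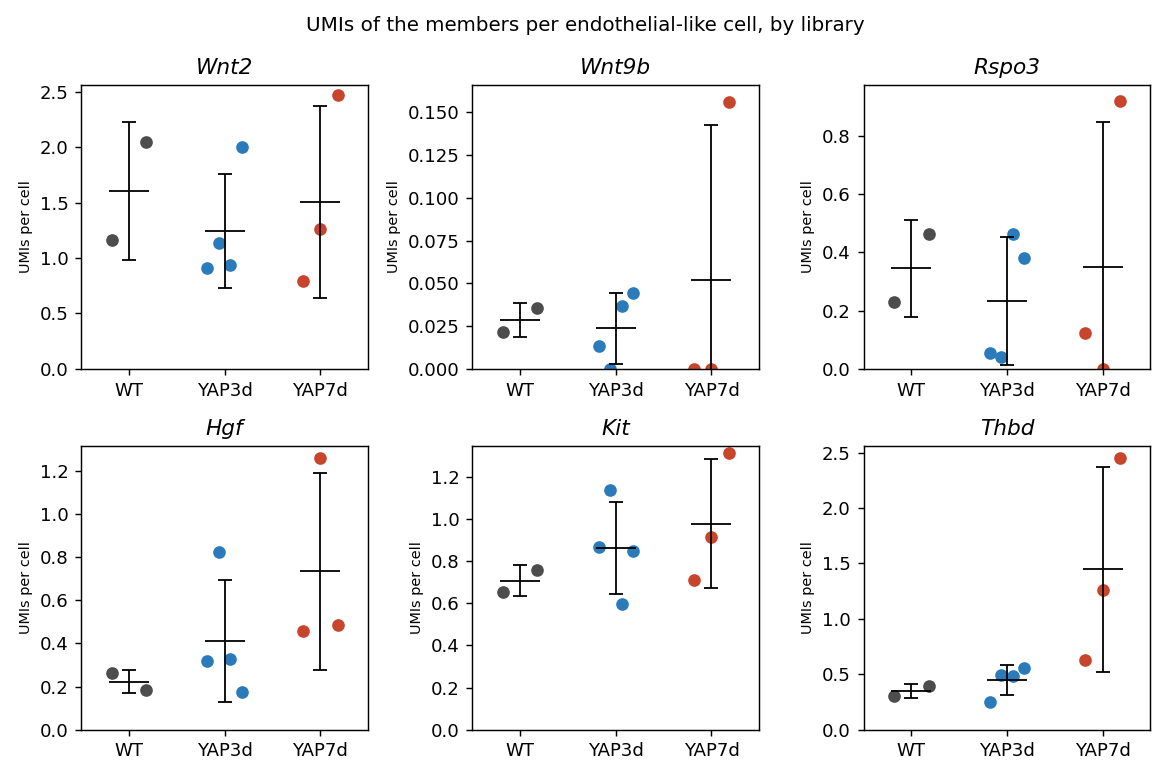
Transcripts (UMIs) of each member per endothelial-like cell (vertical axis, from 0) in the 3 groups (horizontal axis); points are libraries, the long bar is the mean and whiskers are ± 1 SD, cut off at 0. On this scale Wnt2 overlapped between groups (0.792 to 2.47 in YAP7d, 1.16 and 2.05 in WT) and Thbd was highest in YAP7d (0.625, 1.26 and 2.45).

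To compare shares of cells at 1 depth, each cell was thinned to 2000 UMIs and shallower cells were left out, 125 and 55 of WT, 29, 9, 73 and 48 of YAP3d and 0 of YAP7d. Wnt2 was then found in 38.4% and 45.9% of WT endothelial-like cells, in 26.1%, 23.8%, 31.5% and 48.3% of those of YAP3d, and in 12.5%, 21.7% and 25% of those of YAP7d. The difference of the means between YAP7d and WT was -22.4 points. With 2 against 3 libraries the exact permutation test cannot go below p = 0.1, which it reached. Of 18 such tests over the 6 members none had an adjusted p under 0.05, and the exact p of Wnt2 was 0.857 after adjustment. At the same depth T-cell-like cells had a Wnt2 transcript in 1.27% of 1651 cells.

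Wnt9b, at chr11:103727362-103775272, gave 6 and 18 transcripts in the endothelial-like cells of WT, 1, 0, 6 and 34 in YAP3d, and 0, 0 and 10 in YAP7d. This was 7.09 and 7.78 CPM in WT, up to 10.7 in YAP3d and up to 11.1 in YAP7d. The groups overlapped, and a library at 0 could have held up to 13.8 CPM, the level of 3 counts, so that a change in Wnt9b was not detectable at this depth. Without the filter on low counts, which it did not pass, its difference between YAP7d and WT was -0.14 (SE 0.743, adjusted p 0.998 by edgeR).

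Rspo3, at chr10:29453106-29535867, was at 74.5 and 101 CPM in WT. It was at 13.9, 9.23, 134 and 79.2 in YAP3d and at 13.5, 0 and 65.8 in YAP7d. All 3 YAP7d libraries lay below WT, and YAP3d overlapped with both. The difference between YAP7d and WT was -1.12 (SE 0.687, adjusted p 0.284 by edgeR). It was unstable to the model: with the replicate number as a block it was -3.75 and called (adjusted p 7.1e-05 by edgeR), although the numbers were not found to pair the libraries, and with the Gm10709 term it turned to 2.01 (adjusted p 0.377 by edgeR). In the YAP7d library with the most counts 52 of 59 Rspo3 transcripts came from 3 cells, and without that library, number 3, Rspo3 was called lower, at -3.66 (adjusted p 0.0445 by edgeR). By proliferation the YAP7d level was 29.6 CPM in cells with 3 or more such genes and 170.4 in the others (27 transcripts in 22 cells), in YAP3d 72.4 and 80.3, and in WT 26.7 and 109.4. In YAP3d the libraries 1 and 2 held 4 and 2 Rspo3 transcripts, in 75 and 51 cells.

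Rspo3 and Wnt9b were found in cells that also held Wnt2. Among endothelial-like cells thinned to 2000 UMIs 686 held Wnt2 and 922 did not. Wnt2 was in 81.0% of the 79 cells with Rspo3 and in 40.7% of those without it. It was in 19 of the 22 cells with Wnt9b, and 12 of those 22 held Rspo3. Thbd was in 41.8% of the Rspo3 cells and in 14.8% of the others, and Kit in 40.5% and 23.9%. Hgf was in 5 of the 79 Rspo3 cells and in 9.68% of the others, too few to give a direction, and Wnt2 was in 43.1% of the Hgf cells and in 42.6% of those without Hgf. Cells of all libraries enter these shares, so they are a description and not a test.

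Zone markers of the liver lobule were read beside the members. Rspo3 was in 5.76% of 1319 cells with a transcript of a pericentral endothelial marker gene (members left out) and in 1.04% of the 289 cells without one. All 22 Wnt9b cells held such a transcript. For Wnt2 the shares were 45.0% and 31.8%. In cells with a periportal marker gene Wnt2 was in 37.8% of 1237, against 58.8% of the 371 others. For Hgf the periportal shares were 9.78% and 8.63%. The splits overlap widely, since 1319 and 1237 of the same cells held each kind of transcript. In YAP7d 108 cells held a pericentral one and 3 did not. Over all endothelial-like cells Fabp4 gave 14019 transcripts and Ptgs1, the next pericentral gene, 2041. These shares are therefore no map of the zones.

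The growth factor Hgf, at chr5:16553495-16619439, was at 85.1 and 40.2 CPM in endothelial-like cells of WT, at 83.3, 194, 94.9 and 35.9 in YAP3d and at 49.7, 131 and 34.5 in YAP7d. Each group spanned a range wider than any difference between group means. The difference between YAP7d and WT was 0.09 (SE 0.591, 95% interval -1.07 to 1.25, adjusted p 0.943 by edgeR), so that a change of up to 2-fold in either direction lay within the interval. With the Gm10709 term it turned to -1.09 (adjusted p 0.549 by edgeR). Counted per cell Hgf was at 0.261 and 0.185 in WT and at 0.458, 1.26 and 0.484 in YAP7d, without overlap. Scaled by cells it was called higher, at 1.67 (adjusted p 0.00951 by edgeR), of which 0.20 was above the shift of all genes.

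The receptor gene Kit, at chr5:75574987-75656722, was at 214 and 165 CPM in WT. It was at 226, 268, 174 and 176 in YAP3d and at 76.8, 94.7 and 93.6 in YAP7d. The YAP7d libraries lay close together and below all 6 others, and YAP3d overlapped with WT. Kit fell by 1.02 from WT to YAP7d (SE 0.234, adjusted p 0.00669 by edgeR) and by 1.12 from YAP3d to YAP7d (SE 0.214, adjusted p 0.00210 by edgeR). The step from WT to YAP3d was 0.10 (SE 0.206, 95% interval -0.31 to 0.50).

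With the Gm10709 term Kit was at -1.47 between YAP7d and WT and kept its call (adjusted p 0.0196 by edgeR). The Kit difference between YAP7d and YAP3d was called in all 24 alternatives on this scale, the term for Gm10709 included. That between YAP7d and WT lost its call only without WT library 1, where it was -0.81. Leaving out a WT library leaves 1, so that the spread then comes from YAP3d and YAP7d only. In YAP7d the Kit level was 89.7 in cells with 3 or more proliferation genes and 101 in the others. Per cell, however, Kit was not lower: 0.656 and 0.759 transcripts in WT against 0.708, 0.913 and 1.31 in YAP7d, and scaled by cells its difference was 0.51 (adjusted p 0.200 by edgeR), or -0.96 relative to all genes. At 2000 UMIs a Kit transcript was in 29.1% and 23.0% of WT cells and in 20.8%, 21.7% and 10.9% of YAP7d cells, all 3 below WT.

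Wnt2 and Kit fell together, and the 250 bases before an annotated start of each (RefSeq, GRCm38.p6) are given to show what stands upstream of them. The Wnt2 window is chr6:18030446-18030695 on the minus strand and lies within the span of the gene, before a start inside it. The Kit window is chr5:75574737-75574986 on the plus strand. Capitals mark the only match of 3 short motifs searched on both strands, GGAATG for TEAD, TGATAA for GATA and CTTTGA for TCF/LEF factors. It is a GATA core on the reverse strand (TTATCA), starting at base 242 of the Wnt2 window.

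Wnt2: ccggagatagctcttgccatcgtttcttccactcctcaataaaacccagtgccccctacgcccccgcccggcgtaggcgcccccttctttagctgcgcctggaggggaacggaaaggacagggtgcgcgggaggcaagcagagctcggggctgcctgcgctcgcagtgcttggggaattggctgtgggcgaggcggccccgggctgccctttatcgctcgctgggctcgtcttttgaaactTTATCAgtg
Kit: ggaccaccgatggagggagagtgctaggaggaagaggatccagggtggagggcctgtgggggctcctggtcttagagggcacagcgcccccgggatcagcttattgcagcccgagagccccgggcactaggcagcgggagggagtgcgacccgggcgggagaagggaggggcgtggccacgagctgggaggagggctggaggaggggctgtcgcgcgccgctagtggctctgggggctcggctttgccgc

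Of 32851 mouse windows of this length, 7.94% held the GATA letters, 12.6% the TEAD letters and 13.8% the TCF/LEF letters. Windows were at hand for 4 of the 6 members, and those of Hgf and Wnt9b held none of the 3 motifs. G and C made up 63.6% of the Wnt2 window and 70.8% of that of Kit.

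Thbd, a gene at chr2:148404471-148408188, was at 99.3 and 85.6 CPM in WT, at 65.9, 115, 141 and 116 in YAP3d and at 67.7, 131 and 175 in YAP7d. The groups overlapped. The difference between YAP7d and WT was 0.59 (SE 0.322, 95% interval -0.05 to 1.22, adjusted p 0.234 by edgeR), where 9.71% of genes tested were called higher. In YAP7d library 3 a few cells weighed heavily, since 76 of its 157 Thbd transcripts were in 3 cells. Per cell, Thbd was at 0.304 and 0.394 in WT and at 0.625, 1.26 and 2.45 in YAP7d without overlap. It was called higher when scaled by cells, by 2.1 (adjusted p 0.000623 by edgeR), which is 0.64 above the shift of all genes. At 2000 UMIs a Thbd transcript was in 19.9% and 15.9% of WT cells and in 12.5%, 17.4% and 15.6% of YAP7d cells.

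**Figure D4:**
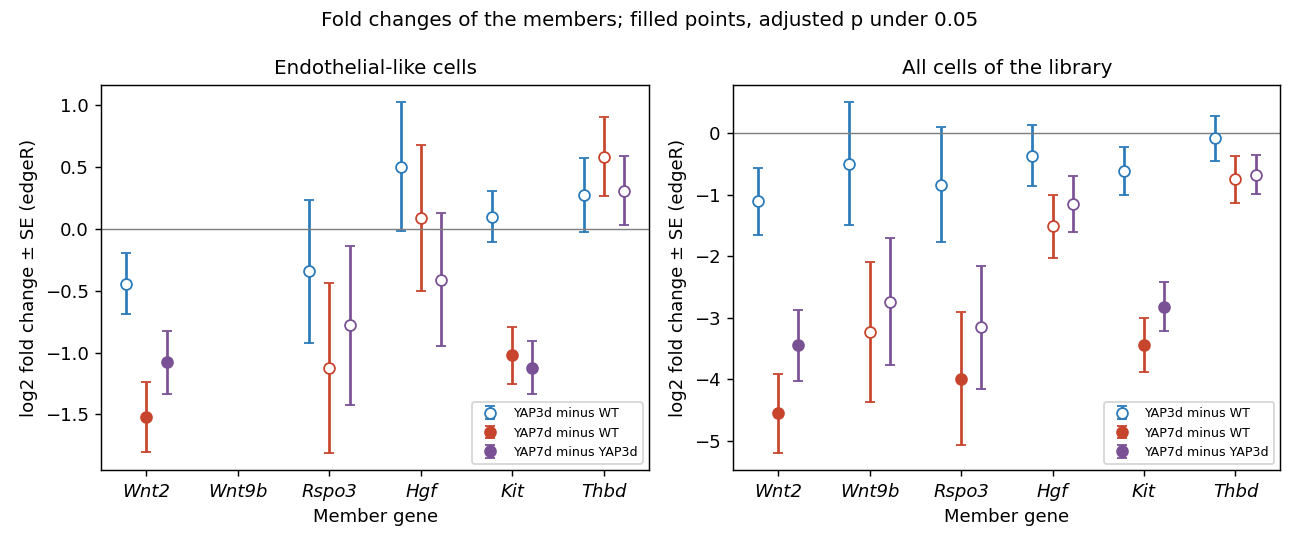
log2 fold changes ± SE by edgeR (vertical axes) of each member (horizontal axis) in endothelial-like cells (left) and in all cells of a library (right), for the 3 comparisons; filled points have an adjusted p under 0.05. Wnt2 and Kit are filled for YAP7d against WT (-1.52 and -1.02 on the left, -4.55 and -3.44 on the right) and against YAP3d, Rspo3 only on the right against WT (-3.99), and no point is filled for YAP3d against WT.

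In the whole suspension a member's level depends both on the share of the cells that hold it and on its level in them, and in such sums fewer cells of a type and less RNA per cell cannot be told apart. Wnt2 was at 170.1 and 154 CPM over all cells in WT, at 53.5, 19.5, 91.0 and 127 in YAP3d and at 3.85, 7.21 and 6.70 in YAP7d. The 3 groups did not overlap. It fell by 4.55 on the log2 scale from WT to YAP7d (SE 0.645, adjusted p 0.00434 by edgeR), or 23.5-fold. Kit was at 102 and 59.3 in WT and at 5.60, 7.93 and 6.03 in YAP7d, a difference of -3.44 (SE 0.44, adjusted p 0.00431 by edgeR). Rspo3 was at 33.4 and 33.1 in WT and at 0.700, 1.20 and 2.59 in YAP7d, a difference of -3.99 (SE 1.09, adjusted p 0.0315 by edgeR). The Rspo3 call was lost when any 1 WT or YAP7d library was left out (adjusted p 0.0525 without YAP7d library 3, by edgeR), while the difference stayed between -3.68 and -5.05. The fits without a WT library hold 1 WT library and take their spread from YAP3d and YAP7d.

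These 3 of the 6 members were called lower over all cells in YAP7d than in WT, against 10.9% of 12071 genes. Between YAP7d and YAP3d Wnt2 (-3.45, adjusted p 0.00748) and Kit (-2.83, adjusted p 0.00652 by edgeR) were called lower, against 9.83% of genes. Between YAP3d and WT 0 members and 0% of genes were called by edgeR, with 358 genes at an unadjusted p under 0.05, while DESeq2 called 16 genes and 360 were under 0.05. The other 3 members did not pass between YAP7d and WT over all cells. Wnt9b was at -3.23 (SE 1.14, adjusted p 0.0723 by edgeR) on 0.399 CPM or less in each YAP7d library against 3.13 and 2.59 in WT. It was called in 3 alternatives (adjusted p from 0.0142 with the replicate block to 0.0376 with only the libraries of both groups, and 0.0252 without YAP3d library 2) and turned to 0.41 with the Gm10709 term. Hgf was at -1.51 (adjusted p 0.0664 by edgeR) and was called in 5 alternatives, at -1.46 to -1.93 (adjusted p 0.0309 to 0.0497), among them DESeq2, the term for libraries of over 1000 cells and the fit without YAP7d library 2. Thbd was at -0.75 (adjusted p 0.185 by edgeR), was called with the replicate block alone, at -1.13, and turned to 0.23 with the Gm10709 term. With a term for Gm10709 0 members were called between YAP7d and WT over all cells. Wnt2 was then at -2.84 and Kit at -2.93 (adjusted p 0.262 for both, by edgeR), and Rspo3 turned to 0.54. The libraries of under 1000 cells hold WT library 1 alone of WT, so that only differences are given. In them Wnt2 was at -4.83, Kit at -3.79 and Rspo3 at -4.99.

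The share of Hgf, Kit and Thbd transcripts that lay in endothelial-like cells was lower in YAP7d than in WT. In WT 93.5% and 85.3% of Hgf transcripts were in endothelial-like cells, and in YAP7d 37.9%, 50% and 19.5%. For Kit the shares were 92.8% and 87.6% against 53.1%, 63.6% and 55.6%, and for Thbd 93.3% and 80.5% against 13.5%, 42.6% and 24.7%. The YAP7d shares lay below WT for all 3 genes. They lay below YAP3d as well for Hgf (72.4% to 94.6% in YAP3d) and Kit (73.0% to 93.5%), but overlapped with it for Thbd, which was at 61.3%, 31.6%, 84.9% and 76.2% in YAP3d. For Rspo3 the YAP7d libraries held 3 of 4, 0 of 5 and 59 of 65 transcripts in endothelial-like cells. Over the same libraries monocyte-like cells went from 2.5% and 4.94% of cells in WT to between 22.3% and 49.8% in YAP7d.

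**Figure D5:**
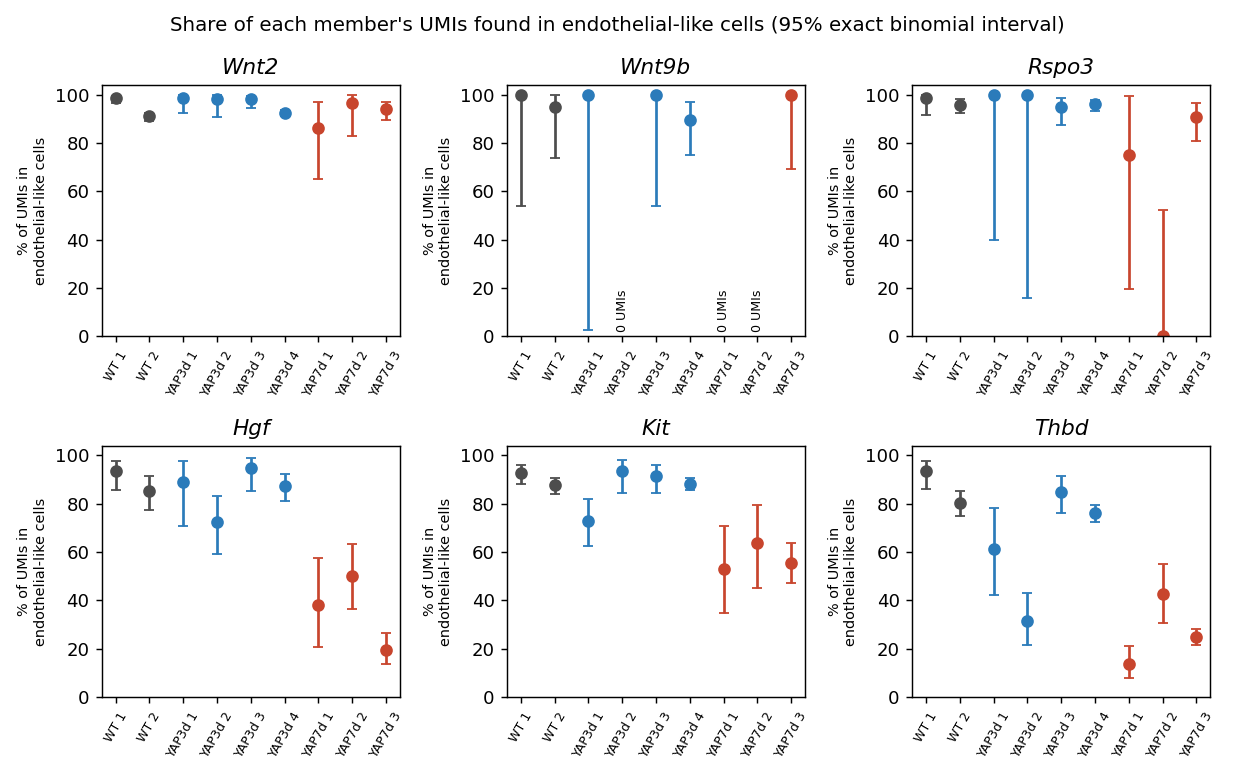
Percent of each member's transcripts that were found in endothelial-like cells (vertical axis, 0 to 100) in each of the 9 libraries (horizontal axis, coloured by group), with 95% exact binomial intervals for counting error; libraries without a transcript are marked 0 UMIs. The share was at or above 86.4% in every library for Wnt2 and fell to between 13.5% and 63.6% in YAP7d for Hgf, Kit and Thbd.

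In the other classes 3 fits had enough counts of a member to test it: Thbd and Hgf in monocyte-like cells and Kit in conventional dendritic-like cells, and none of these was called. In monocyte-like cells Thbd was at 43.9 and 23.5 CPM in WT and at 37.4, 27.5 and 31.5 in YAP7d, within the range of WT, with a difference of 0.20 (SE 0.428, adjusted p 0.925 by edgeR). Monocyte-like Hgf differed by -0.27 (SE 0.747, adjusted p 0.959 by edgeR), and 0 of these 2 members were called where 0.657% of 7768 genes were. YAP3d library 1, with 7 monocyte-like cells, did not enter that fit. In conventional dendritic-like cells Kit was at 74.3 and 42.6 in WT and at 15.7, 59.6 and 17.3 in YAP7d, which overlapped, with a difference of -1.25 (SE 0.751, adjusted p 0.767 by edgeR), where 0% of 3709 genes were called by edgeR, 299 had an unadjusted p under 0.05, and DESeq2 called 33.

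Whether the change from WT to YAP7d differed between classes was tested as such. Thbd changed by 0.41 more in endothelial-like than in monocyte-like cells (SE 0.536, adjusted p 0.866) and Hgf by 0.40 more (SE 0.78, adjusted p 0.916 by edgeR), neither called, where 1.5% of genes were. The Kit difference between endothelial-like and conventional dendritic-like cells was 0.31 (SE 0.546, adjusted p 0.872 by edgeR), where 3.19% of genes were called. A fall of Kit that is particular to the endothelium was therefore not shown.

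Genes that act with the members were read from fixed lists in the same endothelial-like fit, YAP7d against WT, where 9.71% of all genes tested were called higher and 8.73% lower and their median was -0.04. A Ptprc transcript, which marks leukocytes, was in 2.90% and 7.17% of the endothelial-like cells of WT, in 3.70% to 13.1% of those of YAP3d and in 16.7%, 4.35% and 28.1% of those of YAP7d. Summed monocyte markers in these cells were at 42.6 and 185 CPM in WT and at 176, 81.2 and 498 in YAP7d, and summed neutrophil markers at 60.3 and 127 in WT and at 22.6, 63.1 and 726 in YAP7d. Each called gene named from a list was therefore also read without the cells that held Ptprc. With the Gm10709 term, all 29 called genes picked from the lists by size kept their direction and 8 kept their call: Nrp1, Plaur, F8, Gas6, Fabp4, Ntn4, Ltbp4 and Hspa1b. Of those that lost it, Plau was then at 0.36, Kitl at 0.14 and Ptgs1 at -0.19, and Wls at -1.44 (adjusted p 0.0663 by edgeR).

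Of 22 other genes for Wnt and R-spondin ligands and their release, 1 was abundant enough to be tested, Wls, which carries Wnt proteins to the cell surface. It fell by 1.04 (adjusted p 0.0160 by edgeR), from 155 ± 39.5 (SD, n = 2) to 78.4 ± 22.5 CPM (SD, n = 3). Of 8 tested Wnt receptor and transducer genes 1 was called, the co-receptor gene Lrp6, at -0.9998, a share near that of all genes, and the list's median was -0.32. Of 21 inhibitors and feedback targets only Nkd1, a Wnt-induced inhibitor, could be tested, and it fell by 1.18.

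On the side of Hgf, which must be cleaved to act, 4 of 15 genes could be tested and all 4 were called. Plau, the urokinase gene, and Plaur, that of its receptor, rose by 2.41 and 2.76. Only 376 of 6797 Plaur transcripts in all cells were in endothelial-like cells. Without the cells that held Ptprc, Plaur was at 2.62 (adjusted p 4.03e-05), whereas Plau, at 2.41, was no longer called (adjusted p 0.0646 by edgeR). Spint2, which encodes an inhibitor of the activating proteases, fell by 1.07 and Nrp1, a co-receptor gene, by 0.997. The receptor gene Met was not among those tested. Kitl, which encodes the ligand of Kit, rose by 1.19 from 37.0 ± 2.84 (SD, n = 2) to 83.9 ± 17.3 CPM (SD, n = 3) with an adjusted p of 0.0492 by edgeR, while Socs1 and Pik3r1 fell by 1.20 and 0.87. All 3 lost their calls without the cells that held Ptprc, at 1.16, -1.04 and -0.63 (adjusted p 0.0631, 0.0660 and 0.131 by edgeR). The 6 other genes of the 9 tested in the Kit list were not called.

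In the list of thrombomodulin, protein C and the clotting surface 2 of 6 were called, both lower: F8, which encodes clotting factor VIII, at -2.004, and F2r, the gene of a thrombin receptor, at -0.78. Of 8 tested genes for other endothelial growth signals 2 rose and 3 fell. Inhbb, which encodes an activin subunit, rose by 1.58 and Tgfb1 by 0.72. Tgfb1 had 3827 of its 20247 transcripts in endothelial-like cells, and without the cells that held Ptprc it was at 0.71 (adjusted p 0.0297 by edgeR). Gas6, which encodes a ligand of TAM receptors, fell by 2.34, the Notch ligand gene Dll4 by 1.17 and Bmp2, known to tell hepatocytes about iron, by 0.61.

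The zone markers were mixed on the pericentral side and mostly lower on the periportal side. Of 6 tested pericentral endothelial genes other than the members 2 rose, Ramp3 by 1.86 and Fabp4 by 1.42, and 2 fell, Cdh13 by 1.47 and Ptgs1 by 0.64, of which Ptgs1 lost its call without the cells that held Ptprc (-0.57, adjusted p 0.0811 by edgeR). Of 6 tested periportal genes 5 fell, with Ntn4 at -2.83 and Ltbp4 at -2.50, and the median was -1.13. Of 27 tested proliferation genes 25 rose, with a median of 4.06, and of 15 dissociation-response genes 12 fell, led by Hspa1b at -4.70. In YAP3d against WT none of the genes in these lists was called, where 0% of all 7467 genes tested were.

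The hepatocytes that would receive these signals could hardly be read. Of the 115 hepatocyte-like cells WT held 2 and 1, each YAP3d library 9 to 18 and each YAP7d library 11 to 28. They held 2 transcripts of Met, 0 of Lgr5, Lgr4 and Fzd4, and 3 of Axin2, a common Wnt target. Glul, a pericentral Wnt target that encodes glutamine synthetase, gave 229 transcripts in the 2 hepatocyte-like cells of WT library 1 and 0 in the 1 cell of WT library 2. It gave between 2 and 33 in each YAP3d and YAP7d library. With 3 WT cells no comparison was made.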

How the data were processed

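The deposited table holds UMI counts per gene and cell of 9 libraries, which the authors obtained by aligning reads to mm10 with Cell Ranger and handled in Seurat version 2. Libraries held 293 to 2554 cells and 1314878 to 25056881 UMIs. The counts were used as deposited. Cells with under 200 genes (35 of 8562) were left out. Cells were grouped by Leiden clustering (scanpy 1.11.5, resolution 1, 30 principal components, 2369 variable genes without the members and listed genes) into 24 clusters, which were named from fixed markers; 22 cells stayed unnamed. Scrublet called 61 doublets (0.715%), which were kept. Class names are rebuilt and may differ from those of the study.

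Counts were summed per library and class, with at least 10 cells, and tested with edgeR 4.0.16 (filterByExpr, TMM, quasi-likelihood test, all libraries of a class in 1 fit, adjusted p under 0.05). The SE is the log2 fold change divided by the square root of F. DESeq2 1.42.0 served as an alternative. Shares of cells were compared with exact two-sided permutation tests, adjusted over 18 tests. CPM is the plain UMI count over the total of the class in that library.

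The members and lists were chosen with earlier results of these data known. Named were the 6 members, up to 3 rises and 3 falls per list and comparison (adjusted p under 0.05, a mean of at least 20 CPM in 1 group), the 3 genes most like each member, and class markers. The genes given for hepatocyte-like cells, Gm10709 and cluster-leading genes were chosen after their values were seen. Scaling by cells, the limits to cells of at least 4000 UMIs and to libraries of under 1000 cells, and the removal of cells with hepatocyte or haemoglobin transcripts were added after the data had been seen. The tests were tried on simulated counts.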

Additional observations from a re-analysis of the deposited data

How the results depend on the processing

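Alternatives moved 52 counts by more than 1.5 times and left 266 within it, and of the values of members 1093 kept their direction and call, 27 gained a call, 18 lost one and 40 changed sign (a change of sign without a call in either fit and within 1 SE was not counted). The causes were not tested except where the alternative itself uses fewer samples or cells. Leaving out a WT library, or taking only libraries of under 1000 cells, leaves 1 WT library. Counts against WT from such fits take their spread from the other groups. Wnt9b, with 75 transcripts in endothelial-like cells, was tested there only without the filter on low counts and was not called, and each YAP7d value rests on 24, 23 and 64 such cells.

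In endothelial-like cells, YAP7d against WT, 1377 genes were called, and 233 with the Gm10709 term, 438 in cells thinned to 2000 UMIs, 891 in libraries of under 1000 cells, 5547 scaled by cells, 4515 scaled also by T-cell depth and 662 to 1385 with 1 library left out, where WT libraries 1 and 2 and YAP7d library 3 each moved the count by over 1.5 times. The 2 members called became 1 with the Gm10709 term (Kit). Rspo3 was gained without the filter on low counts, without YAP7d library 3 and with the replicate block. Kit fell less without WT library 1, a fit that leaves 1 WT library. For YAP3d against WT the 0 genes became 39 without the filter, 34 in libraries of under 1000 cells and 0 to 7 with 1 library left out (7 without YAP3d library 4). For YAP7d against YAP3d the 1277 genes became 459 (Gm10709), 371 (thinned), 748 (under 1000 cells), 5587 and 5047 (scaled by cells, also by T-cell depth), 806 (without cells with hepatocyte or haemoglobin transcripts) and 699 (without YAP7d library 3) to 1280 (1 library left out), and 1 member was called with the Gm10709 term, after thinning and in both scaled fits.

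Over all cells, YAP7d against WT, 2184 genes were called, and 0 genes and 0 members with the Gm10709 term and in libraries of under 1000 cells, and 509 to 3179 genes with 1 library left out, where each WT and each YAP7d library moved the count by over 1.5 times. For YAP3d against WT DESeq2 called 16 genes. For YAP7d against YAP3d the 1988 genes became 114 (Gm10709), 1174 (thinned), 0 genes and 0 members (under 1000 cells) and 860 to 3569 (1 library left out, with 2 to 4 members called, 4 without YAP3d library 2), where each YAP3d and YAP7d library moved the count by over 1.5 times. In the other classes 5 calls of members appeared without the filter, all lower and from few counts: Kit in macrophage-like cells, Wnt2 in monocyte-like, NK-cell-like and, for both comparisons with YAP7d, T-cell-like cells. In T-cell-like cells a Wnt2 share of 3.04% was read as background above.

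Replicate numbers were not found to pair the libraries, as correlations of same-numbered deviations ran from -0.153 to 0.121. This check cannot exclude pairing. With 2 WT libraries the values of WT 2 are those of WT 1 with the sign turned (-0.118 and 0.118 with YAP3d 1). The libraries of over 1000 cells deviated together (WT 2 with YAP3d 4 at 0.232, WT 2 with YAP7d 3 at 0.311 and YAP3d 4 with YAP7d 3 at 0.333). With a term for them Hgf over all cells, YAP7d against WT, was called (-1.51, adjusted p 0.0328 by edgeR). With the replicate block, endothelial-like counts were 1064, 16 and 857 genes and 3, 1 and 2 members (Rspo3 being the one added, at -3.75 and -2.87, in the first and second; YAP7d against WT, YAP3d against WT, YAP7d against YAP3d), all-cell counts 2064, 2 and 866 genes and 5, 0 and 2 members, and Thbd in endothelial-like cells, YAP3d against WT, turned to -0.16.

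Signs turned as follows. With the Gm10709 term, over all cells Thbd was 0.23, Rspo3 0.54 and Wnt9b 0.41 (YAP7d against WT), Thbd 0.31 (YAP3d against WT), Rspo3 0.51 and Wnt9b 0.21 (YAP7d against YAP3d), and in endothelial-like cells Hgf -1.09 and Rspo3 2.01, Hgf -0.050, and Rspo3 1.81, in the same order of comparisons. Scaled by cells, and also by T-cell depth, Kit was 0.51 and 0.20 and Rspo3 0.33 by cells only against WT, and against YAP3d Hgf was 0.91 and 0.81, Kit 0.24 and 0.070, Wnt2 0.31 and 0.12, and Rspo3 0.69 and 0.45. These signs go with a shift of all genes of 1.46 and 1.16 against WT and of 1.35 and 1.17 against YAP3d, relative to which each of these values lay between -1.14 and -0.35. In libraries of under 1000 cells Thbd was -0.13 against YAP3d. With 1 library left out Hgf over all cells, YAP3d against WT, ran from -0.96 to 0.38 (without WT library 1), Thbd in endothelial-like cells, YAP7d against YAP3d, from -0.14 (without YAP7d library 3) to 0.61, and its difference from monocyte-like cells from -0.19 (without YAP7d library 3) to 0.77.

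For shares of cells, without thinning the differences turned to 1.81 and 1.63 points for Wnt9b (YAP7d against WT and YAP3d) and 18.9 for Hgf (YAP7d against YAP3d). They turned to 11.4 and 5.57 for Kit (YAP7d against WT and YAP3d), and to 15.8 and 3.49 for Thbd (YAP7d and YAP3d against WT). At 1000 UMIs Thbd was 8.64 and 0.217, at 4000 UMIs 3.59 and -12.0, and without cells of 3 or more proliferation genes Rspo3 was 2.05 and 3.21 and Thbd 3.81. Fits of YAP7d without cells of 3 or more proliferation genes could not be made, since under 10 cells per library remained.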

Other observations

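A cluster of 22 cells could not be named. Of 12 macrophage markers 9 were raised in it, but none was among its leading genes, such as Prg4, Alox15 and Saa3. Fn1, also among the leading genes, is a monocyte marker. The median depth of these cells relative to their library was 3.23, and what they are was not tested. The cluster held 15 cells of WT library 2, 2 of YAP3d library 2, 4 of YAP3d library 4 and 1 of YAP7d library 3. Wnt2 was found in 11 of them, with 80 transcripts and 269 CPM pooled (213 to 334, exact Poisson), at a median depth of 14208 UMIs. In WT library 2 these cells gave 54 Wnt2 transcripts. Hgf had 6 transcripts there, and Rspo3, Kit and Thbd had 1 each.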
